A study of Mus musculus with 4 samples.

Results

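Interferon response genes are genes whose transcription rises when a cell senses interferon or foreign nucleic acid. A set of 38 such mouse genes was taken by gene symbol, and 36 of them had at least 1 probe set annotated with that symbol alone, out of 18193 genes with such a probe set on the array. These 36 genes were read by 61 probe sets, and 30 of them passed a filter on low values, which required a mean over the 4 arrays above 5.08 on the log2 scale and left 12589 genes in all. Ifih1, Dhx58, Oasl2, Mx1, Gbp3 and Iigp1 stayed under that threshold with every probe set. The probe set that lists Isg15 also lists Gm9706, so it was left out, and Ifi44 was not analysed here.

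RNA was labelled with biotin and hybridised to Affymetrix mouse expression arrays of 1 colour, on which several probes together form a probe set for a transcript. The cells were bronchoalveolar stem cells (BASCs), sorted from lungs of ICR mice aged 4 to 6 weeks as CD31-, CD45-, CD34+ and Sca-1+ cells and plated on irradiated mouse embryonic fibroblasts, with later passages named in the methods as kept on such feeder cells and in the results of the study as kept on collagen. There were 2 arrays of Myc-depleted BASCs and 2 of control BASCs. The comparison asks which transcripts differ once c-Myc, a transcription factor, is depleted. Myc-depleted cells carried lentiviral short hairpin RNA against c-Myc and were kept under puromycin for several generations as stable lines, and which hairpin was put on the arrays is not stated. The study calls the array controls wild type. In its growth experiments it used BASCs infected with a control lentivirus, whose vector carried a puromycin marker. No source used here says whether the controls on the arrays received virus or puromycin, so infection, selection and depletion cannot be told apart. No source used here says whether the arrays of a group came from different cultures, so each p-value covers the spread of these arrays alone, and that spread may be technical.

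Interferons bind receptors on the cell surface and, through Jak kinases, activate transcription factors such as Stat2, which joins Irf9 in a complex that binds the interferon-stimulated response element (ISRE) in promoters. Sensors of viral RNA and DNA feed the same programme by inducing interferons, and many of the induced proteins block viral translation, replication or budding. Lung epithelium is exposed to respiratory viruses and uses this programme as an early defence, and double-stranded RNA and DNA are its usual triggers in cells that are not infected.

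The ISRE was searched for in RefSeq promoters (GRCm38.p6) from 250 bases before to 50 bases after each gene's start, on both strands, as GAAANNGAAA. Of the 38 genes, 29 had a promoter in the table, and the letters were present in 13 of the 29 (44.8%), against 1079 of 27025 genes (3.99%). The following windows come from genes that had no overlap between the groups, with the ISRE in capitals, and TTTC pairs mark the element on the opposite strand.
Ifit1, chr19:34640765-34640833, plus strand: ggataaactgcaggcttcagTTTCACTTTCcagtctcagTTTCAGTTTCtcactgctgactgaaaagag
Ifit3, chr19:34583363-34583392, plus strand: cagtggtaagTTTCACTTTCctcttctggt
Ifit3, chr19:34583397-34583426, plus strand: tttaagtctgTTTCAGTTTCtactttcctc
Stat2, chr10:128270256-128270305, plus strand: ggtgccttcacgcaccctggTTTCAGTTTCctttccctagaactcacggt
Igtp, chr11:58199502-58199551, plus strand: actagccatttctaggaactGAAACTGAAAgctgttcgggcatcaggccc

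Positions run from the RefSeq start, with bases before it negative. Ifit1 held a pair of elements between -104 and -76, and Igtp held its element between -34 and -25. Both Ifit3 windows fall inside the RefSeq span of the gene. The next windows are shown for contrast, since these genes carry the same letters and had overlapping groups.
Irgm1, chr11:48871421-48871470, minus strand: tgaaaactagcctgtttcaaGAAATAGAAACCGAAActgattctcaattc
Gbp2, chr3:142620584-142620633, plus strand: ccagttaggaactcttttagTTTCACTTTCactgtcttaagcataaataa
Rsad2, chr12:26456543-26456592, minus strand: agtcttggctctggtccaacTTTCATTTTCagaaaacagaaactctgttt
Bst2, chr8:71537567-71537622, minus strand: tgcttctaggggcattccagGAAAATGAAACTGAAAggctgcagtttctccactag

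The E-box CACGTG, which c-Myc binds with Max, was present in 1 of the 29 promoters (3.45%), that of Trim25, against 8.09% of all promoters. The interferon gamma activated site (GAS), searched for as TTCNNNGAA, was present in 7 of the 29 (24.1%), against 9.55% of all promoters. One example of each follows, with the element in capitals.
Trim25, chr11:88999335-88999380, plus strand, E-box: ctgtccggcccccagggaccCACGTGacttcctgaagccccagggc
Irf1, chr11:53769904-53769952, plus strand, GAS: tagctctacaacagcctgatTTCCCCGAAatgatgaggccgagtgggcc

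On log2 values, Myc itself read 8.35 and 8.50 in Myc-depleted BASCs, against 9.21 and 9.69 in controls, a difference of -1.02 that leaves 49.2% of the control level (limma, adjusted p = 0.363). The array medians lay between 5.48 and 5.49 and the correlations between arrays between 0.962 and 0.986. The controls correlated best with each other, at 0.986, whereas the Myc-depleted arrays correlated at 0.967 and did not pair by group. Myc-depleted array 2 correlated with control array 1 at 0.984 and Myc-depleted array 1 with control array 2 at 0.983. Spiked-in bacterial transcripts, whose 3′ minus 5′ probe set difference tracks how complete the labelling reaction was, gave 3.64 and 1.78 in Myc-depleted arrays 1 and 2, against 1.89 and 3.12 in control arrays 1 and 2, so each group held 1 array of each kind. Control array 1 alone stood apart in transcripts known from the cleavage-stage embryo, such as Usp17la, which read 4.34 and 4.66 in Myc-depleted BASCs and 8.09 and 4.49 in controls. Of the labelled sort, Cd34 stayed under the threshold in every sample (3.66 and 3.76 in Myc-depleted BASCs, 3.85 and 3.97 in controls), as did the club cell marker Scgb1a1 and the alveolar marker Sftpc, while Vim, a mesenchymal gene, read 14.39 and 14.43 in Myc-depleted BASCs and 14.53 and 14.48 in controls. Of 9 lung epithelial markers 3 were tested, and Epcam, a surface protein of epithelial cells, read 7.80 and 7.52 in Myc-depleted BASCs, against 6.89 and 7.12 in controls (difference 0.65, limma, adjusted p = 0.3999). Epcam was higher without overlap, Aqp5 was lower without overlap, and Sftpb overlapped. The only tested probe set of Epcam carries a suffix that marks probe sets open to cross-hybridisation. The epithelial markers Cdh1, Krt8, Krt18 and Nkx2-1 did not pass the filter. The sort marker Sca-1 was not analysed here. Fewer cells of a type and less RNA per cell cannot be told apart in these bulk samples.

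Most interferon response genes were slightly higher in Myc-depleted BASCs, and none passed the test across all genes. Of the 30 tested, 23 had a positive difference (76.7%), against 54% of all 12589 genes. The median difference was 0.14 (quartiles 0.01 and 0.24), against 0.02 over all genes. Adjusted p was under 0.05 for 0 of the 30, as for 0% of all genes (limma, Benjamini-Hochberg over 27022 probe sets, smallest adjusted p = 0.110). At an unadjusted p under 0.05 in limma, 2 of the 30 were higher, Ifit3 and Stat2, and 0 were lower. The shares of all genes were 6.96% higher and 5.23% lower. These 2 genes depended on the test. The analysis of variance named in the methods gave unadjusted p-values of 0.111 for Ifit3 and 0.103 for Stat2. It gave 0.0245 for Mx2 and 0.0473 for Irf1. No member passed both 2-fold and an unadjusted p of 0.05, against 0.913% of all genes higher and 0.699% lower.

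The arrays of the groups did not overlap for 13 of the 30 (43.3%), which were higher on both Myc-depleted arrays than on both controls, against 26.6% of all genes. These were Ifit3, Stat2, Ifit1, Mx2, Xaf1, Tlr3, Parp14, Oasl1, Lgals3bp, Ifi35, Irf1, Igtp and Cmpk2. None was lower without overlap, against 20.8% of all genes. Many of these levels were low: 9 of the 13 had a control mean under 6, although none of the 13 had one under the filter threshold. Where only genes above the stricter threshold of 6.16 were kept, 5 of 18 members were higher without overlap, against 26.5% of all genes.

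**Figure D1:**
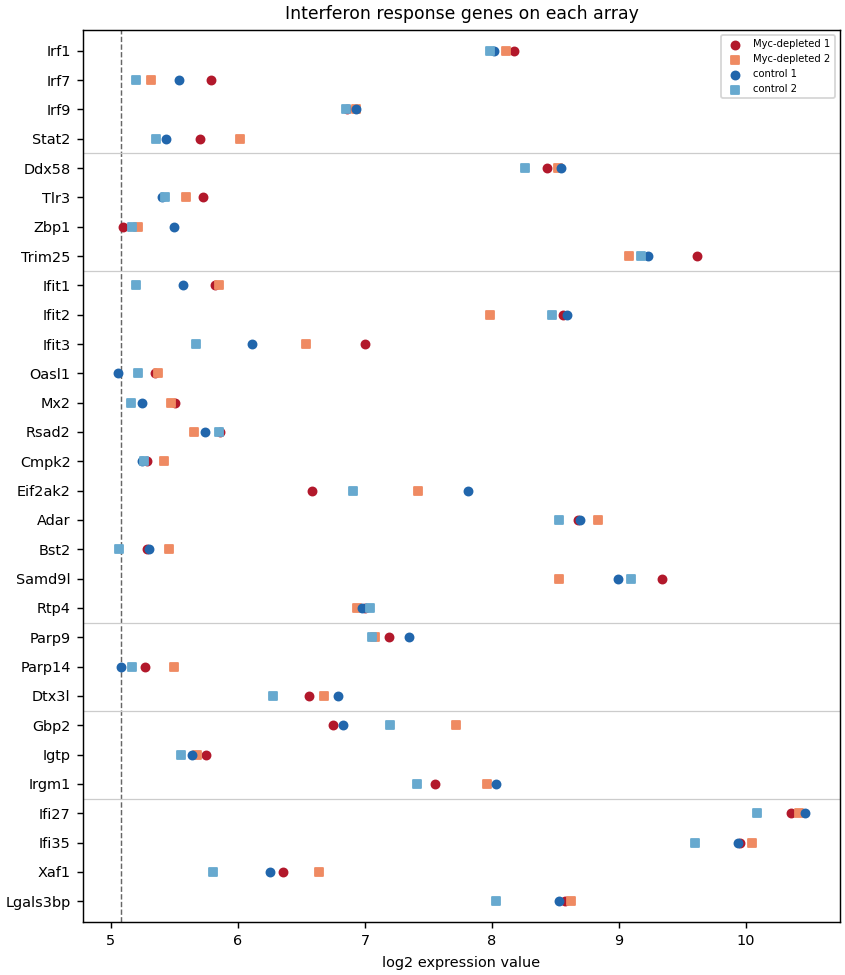
Log2 expression values (horizontal axis) of the 30 tested interferon response genes on each of the 4 arrays, red for the Myc-depleted arrays and blue for the controls, grouped by role and separated by grey lines. The dashed line is the low-value threshold of 5.08, and levels of different genes are not to be compared. The red symbols lie right of both blue ones for 13 genes, among them Ifit3 and Stat2, and left of both for none.

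The transcription factors of the pathway were 4, all positive, with a median of 0.16. Stat2, which acts with Irf9 in the ISRE-binding complex, read 5.70 and 6.01 in Myc-depleted BASCs, against 5.43 and 5.35 in controls. Both Myc-depleted arrays were above both controls, and the difference was 0.46 ± 0.16 (limma standard error, n = 2 each, adjusted p = 0.478). A further probe set of Stat2 did not keep the groups apart, at 4.84 and 6.18 in Myc-depleted BASCs and 5.59 and 4.78 in controls (difference 0.32). Its high arrays were Myc-depleted 2 and control 1, the pair with the low spike-in difference.

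Irf1, an activator induced early by interferon, read 8.17 and 8.11 in Myc-depleted BASCs and 8.01 and 7.98 in controls. The groups were narrow and did not overlap, with a difference of 0.14 ± 0.11 (limma standard error, adjusted p = 0.748). Irf7, which amplifies interferon production, read 5.79 and 5.32 in Myc-depleted BASCs and 5.53 and 5.20 in controls (difference 0.19). Its groups overlapped. Irf9, the DNA-binding part of the complex with Stat2, read 6.86 and 6.93 in Myc-depleted BASCs and 6.93 and 6.85 in controls. Its difference of 0.00197 was far smaller than the gap between arrays of either group.

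Of the sensors, 4 were tested and 3 had a positive difference. Tlr3, the endosomal receptor for double-stranded RNA, read 5.72 and 5.59 in Myc-depleted BASCs, against 5.40 and 5.43 in controls. The groups did not overlap (difference 0.24, limma, adjusted p = 0.591), whereas they did for its other probe set, at 5.10 and 5.69 in Myc-depleted BASCs and 5.44 and 5.25 in controls. Ddx58, the RIG-I helicase that senses viral RNA, read 8.43 and 8.52 in Myc-depleted BASCs and 8.54 and 8.26 in controls, and control array 1 was highest. A dimmer probe set of Ddx58 had no overlap, at 5.33 and 5.47 in Myc-depleted BASCs and 5.26 and 4.99 in controls. Trim25, the ubiquitin ligase that activates RIG-I and the gene with the E-box shown above, read 9.61 and 9.07 in Myc-depleted BASCs and 9.23 and 9.18 in controls. Its highest and its lowest value were both from Myc-depleted arrays. Zbp1, a sensor of Z-form nucleic acid, was the sensor with a negative difference, at 5.10 and 5.22 in Myc-depleted BASCs and 5.49 and 5.16 in controls. That difference of -0.17 rested on control array 1, and Zbp1 groups overlapped. A dimmer probe set of Zbp1, under the threshold, had a difference of 0.19, also with overlapping groups. Ifih1, the MDA5 helicase, and Dhx58, the related helicase LGP2, were under the threshold, Ifih1 at 4.94 and 4.83 in Myc-depleted BASCs and 4.86 and 4.71 in controls.

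The antiviral effectors held 12 tested genes, of which 7 had a positive difference (58.3%, against 54% of all genes) and 5 were higher without overlap (41.7%, against 26.6%). Ifit3, which stabilises Ifit1 family complexes that bind foreign RNA, had the largest difference of the 30. It read 7.00 and 6.53 in Myc-depleted BASCs, against 6.11 and 5.67 in controls. Both Myc-depleted arrays stood above both controls, and the difference was 0.88 ± 0.25, or 1.83-fold (limma standard error, n = 2 each, adjusted p = 0.431). By p, Ifit3 was number 878 of the 12589 genes. Leaving out each array in turn gave differences between 0.64 and 1.11 for Ifit3.

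Ifit1, which binds the 5′ end of RNA that lacks host cap marks, read 5.82 and 5.85 in Myc-depleted BASCs, against 5.57 and 5.20 in controls. The Myc-depleted arrays were close together and the controls apart, with no overlap (difference 0.45 ± 0.17, limma standard error, adjusted p = 0.513). Ifit2, from the same family, ran the other way, at 8.56 and 7.99 in Myc-depleted BASCs and 8.59 and 8.47 in controls. Myc-depleted array 2 alone made its difference of -0.25, and control array 1 was only just above Myc-depleted array 1.

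Mx2, a dynamin-like GTPase that blocks viruses, read 5.50 and 5.47 in Myc-depleted BASCs, against 5.24 and 5.16 in controls. The groups did not overlap and were each tight, with a difference of 0.29 ± 0.11 (limma standard error, adjusted p = 0.526). Its relative Mx1 was under the threshold, at 4.73 and 4.66 in Myc-depleted BASCs and 4.48 and 4.85 in controls. Oasl1, of the oligoadenylate synthetase-like family, read 5.35 and 5.37 in Myc-depleted BASCs and 5.05 and 5.21 in controls, without overlap (difference 0.23), with control array 1 under the threshold. Cmpk2, a mitochondrial nucleotide kinase, read 5.28 and 5.41 in Myc-depleted BASCs and 5.24 and 5.26 in controls, so its groups were separated by a small gap. Oasl2 was under the threshold on every array.

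Eif2ak2, the kinase PKR that halts translation on double-stranded RNA, was the member with the most negative difference, -0.36 ± 0.45 (limma standard error, adjusted p = 0.863). It read 6.58 and 7.41 in Myc-depleted BASCs and 7.81 and 6.91 in controls. The groups overlapped, and the high arrays were Myc-depleted 2 and control 1. Adar, which edits double-stranded RNA, read 8.67 and 8.83 in Myc-depleted BASCs and 8.69 and 8.53 in controls, with control array 1 between the Myc-depleted arrays. Bst2 (tetherin), which holds budding virus at the cell surface, read 5.28 and 5.46 in Myc-depleted BASCs and 5.30 and 5.06 in controls. Its ISRE pair is shown above and its groups overlapped. Samd9l spanned 9.34 and 8.52 in Myc-depleted BASCs, around controls of 8.99 and 9.10. Rsad2 (viperin) and Rtp4 each differed by -0.04, smaller than their limma standard errors of 0.14 and 0.11, although both dimmer probe sets of Rsad2, under the threshold, were higher without overlap in Myc-depleted BASCs.

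Parp9, Parp14 and Dtx3l act together in ADP-ribosylation and ubiquitin signalling. Parp14 read 5.27 and 5.49 in Myc-depleted BASCs, against 5.08 and 5.16 in controls. These groups did not overlap (difference 0.26, limma, adjusted p = 0.624), but the controls lay at the threshold of 5.08. The groups overlapped for Parp9, at 7.18 and 7.08 in Myc-depleted BASCs and 7.34 and 7.05 in controls. Dtx3l, the ligase partner of Parp9, read 6.56 and 6.67 in Myc-depleted BASCs and 6.79 and 6.28 in controls. For Parp9 and Dtx3l, control array 1 was the highest of the 4 and control array 2 the lowest.

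Among the interferon-induced GTPases, which take part in defence against intracellular pathogens, 3 were tested and all had positive differences. Igtp (Irgm3) read 5.75 and 5.68 in Myc-depleted BASCs, against 5.64 and 5.55 in controls, close but without overlap (difference 0.12). Gbp2 read 6.75 and 7.72 in Myc-depleted BASCs and 6.83 and 7.20 in controls. Its Myc-depleted arrays enclosed both controls, as they did for its other tested probe set. Irgm1 read 7.55 and 7.96 in Myc-depleted BASCs and 8.03 and 7.41 in controls, a difference of 0.04 with overlapping groups. Gbp3 and Iigp1 were under the threshold.

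The remaining induced genes gave 4 positive differences of 4, with a median of 0.28. Xaf1, a pro-apoptotic antagonist of XIAP, read 6.35 and 6.64 in Myc-depleted BASCs, against 6.25 and 5.81 in controls. The groups did not overlap and control array 1 lay close below Myc-depleted array 1 (difference 0.47 ± 0.22, limma standard error, adjusted p = 0.575). Lgals3bp, a secreted glycoprotein that binds galectins, read 8.57 and 8.62 in Myc-depleted BASCs, against 8.53 and 8.03 in controls. Ifi35 read 9.95 and 10.04 in Myc-depleted BASCs, against 9.93 and 9.60 in controls. For both genes control array 1 lay close below the Myc-depleted arrays and control array 2 was set apart further down. Ifi27, a small membrane protein, read 10.35 and 10.42 in Myc-depleted BASCs and 10.47 and 10.08 in controls, with control array 1 highest.

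**Figure D2:**
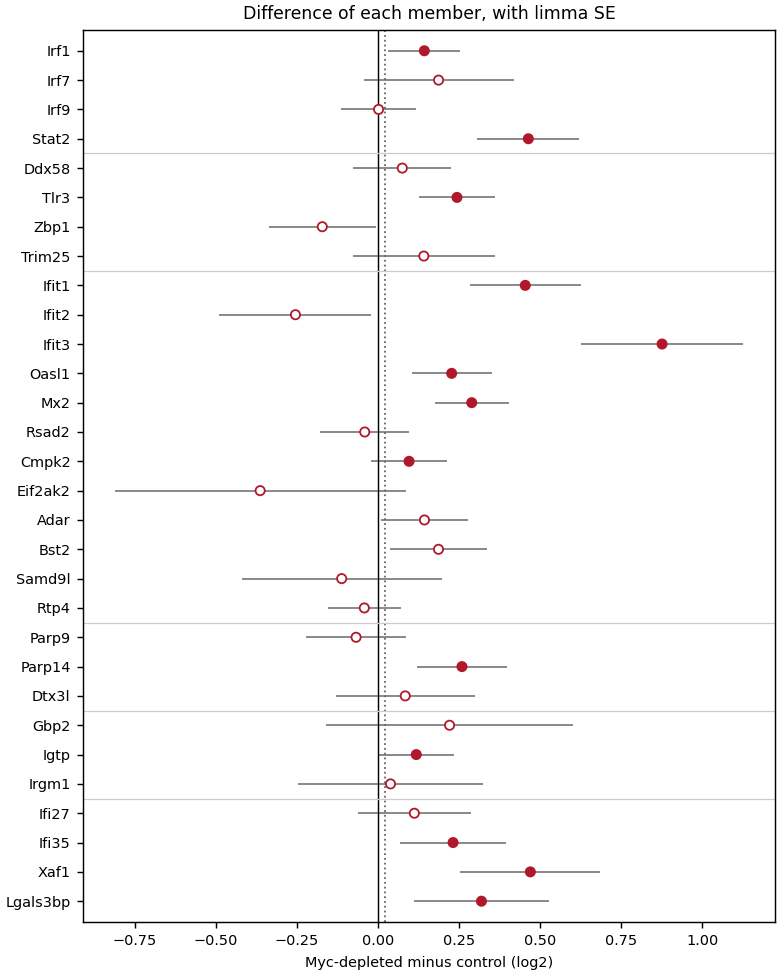
Difference in log2 expression (Myc-depleted minus control, horizontal axis) of each tested interferon response gene, with bars of 1 limma standard error. Filled circles mark the 13 genes whose arrays did not overlap, and the dotted line is the median of all genes, 0.02. Ifit3 stands furthest right at 0.88 and Eif2ak2 furthest left at -0.36.

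How many members were higher depended on which control array was taken. Against control array 1, 18 of 30 were higher on Myc-depleted array 1 and 16 on Myc-depleted array 2, with medians of 0.04 and 0.07. Of all genes, 53.4% and 54.3% were higher in these comparisons. Against control array 2, 26 were higher on Myc-depleted array 1 and 25 on Myc-depleted array 2, with medians of 0.19 and 0.28. The shares of all genes here were 52.7% and 53.6%. The medians of all genes were 0.02 to 0.03 in all 4 comparisons. Between the controls themselves, 8 of 30 were higher on control array 2 than on control array 1, with a median of -0.14. That gap was about as large as the median difference between the groups. Without control array 1, the median was 0.22 and 22 members were higher without overlap, against 36.9% of all genes. Without control array 2, the median was 0.07, with 13 higher and 9 lower without overlap, against 39.3% and 31.6% of all genes. Without Myc-depleted array 1, 16 members were higher and 5 lower without overlap, against 42.4% and 34.4% of all genes. Without Myc-depleted array 2, 17 were higher and 3 lower, against 42.9% and 36.8% of all genes.

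**Figure D3:**
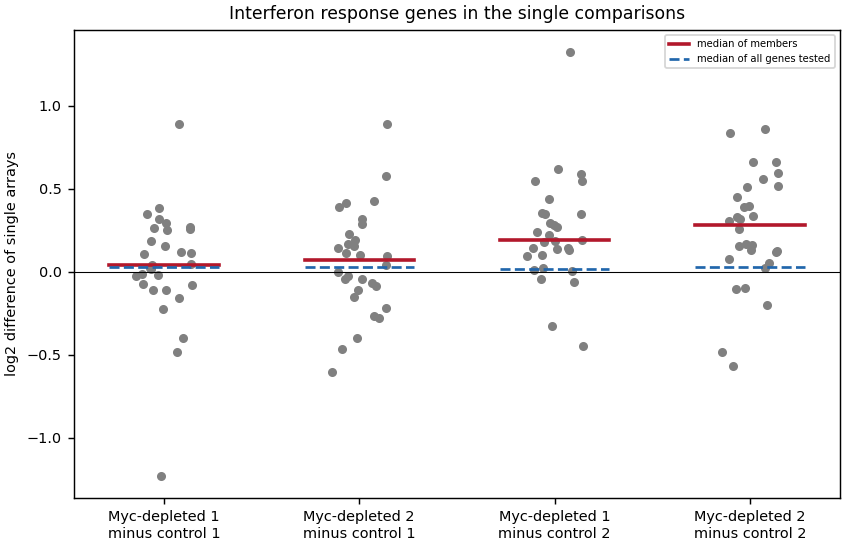
Log2 differences (vertical axis) of the 30 tested members in each comparison of 1 Myc-depleted array with 1 control array. Each point is a gene, red lines are medians of the members and dashed blue lines medians of all genes. The red line lies at 0.04 and 0.07 against control 1 and at 0.19 and 0.28 against control 2, while the dashed line stays at 0.02 to 0.03.

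The spike-in difference moved with the values of some probe sets. Between the arrays with the low spike-in difference, Myc-depleted 2 and control 1, the median member difference was 0.07. It was 0.19 between those with the high one, Myc-depleted 1 and control 2. Ifi35 is an example: its dimmest tested probe set read 7.27 and 8.15 in Myc-depleted BASCs and 7.97 and 7.37 in controls, so the arrays split by spike-in difference and not by group. Adding the spike-in difference as a covariate, which leaves 1 residual degree of freedom, gave adjusted p-values in limma of 0.0330 for Stat2, 0.0384 for Xaf1 and 0.0410 for Ifit3, while calling 11.9% of all genes. These 3 calls were not made in the fit without it.

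**Figure D4:**
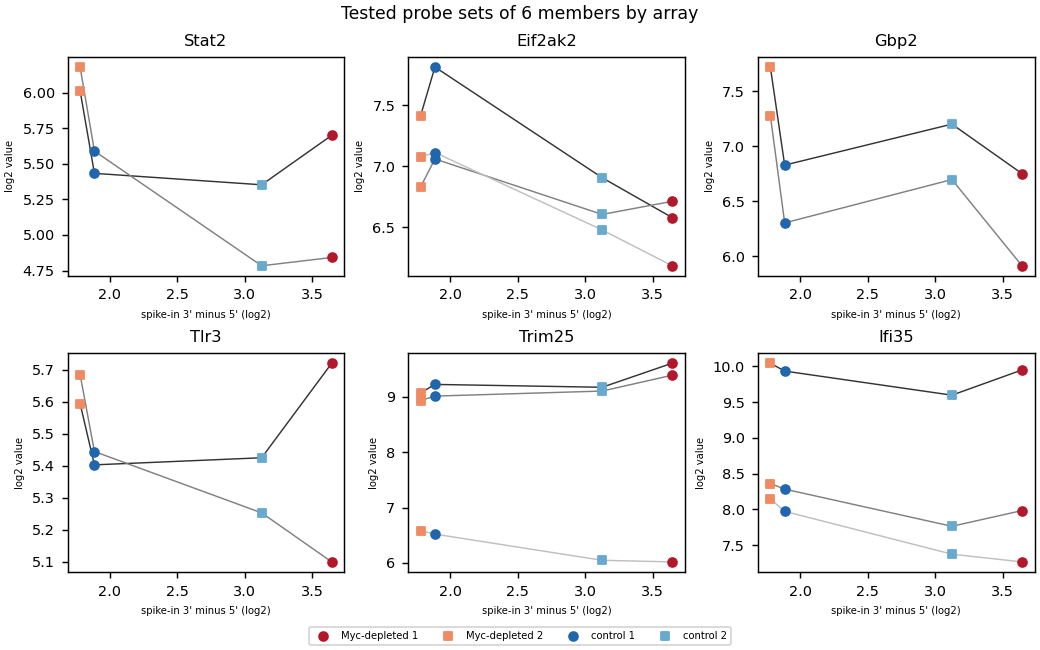
Log2 values (vertical axis) of every tested probe set of 6 members, chosen after their values were seen, against the spike-in 3′ minus 5′ difference of the array (horizontal axis). Each line joins 1 probe set over the 4 arrays, red for Myc-depleted and blue for control. Eif2ak2 and the dimmest probe set of Ifi35 are higher on the arrays with the low spike-in difference, 1 from each group.

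Tested members had close medians with and without an ISRE in the window, a description on which no test was run. The 10 with the element had a median difference of 0.15 and ran between -0.36 and 0.88. Of these 10, 8 were positive and 4 higher without overlap, against 54% and 26.6% of all genes. The 14 without it in the window had a median of 0.14, with 12 positive and 7 higher without overlap. A further 6 had no promoter in the table, with a median of 0.035, 3 positive and 2 higher without overlap. Ifit3, Ifit1, Stat2 and Igtp, whose windows are printed above, were the 4 with the element and no overlap.

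Upstream of these genes, the interferon genes themselves lay mostly under the low-value threshold, and 2 of 10 passed the filter, Ifna2 and Ifnz, with differences of -0.06 and -0.00267 and overlapping groups. Ifnb1, the first interferon that most cells make, read 4.75 and 4.41 in Myc-depleted BASCs and 4.52 and 4.78 in controls, under the threshold. Ifng read 3.79 and 3.83 in Myc-depleted BASCs and 3.74 and 3.91 in controls. Neither was higher on both Myc-depleted arrays. The receptors and Jak-Stat kinases gave 10 tested genes, with 7 positive (70%, against 54% of all genes) and a median of 0.16. Without overlap, 4 were higher and 1 lower, against 26.6% and 20.8% of all genes. Ifngr1, the ligand-binding chain of the interferon gamma receptor, read 8.50 and 8.79 in Myc-depleted BASCs, against 8.06 and 8.23 in controls (difference 0.50, limma, adjusted p = 0.461). The kinase Tyk2 read 7.85 and 7.79 in Myc-depleted BASCs, against 7.40 and 7.54 in controls, also without overlap. Stat3, which cytokine receptors activate, was higher by 0.34 without overlap. Ifnar1, a chain of the type I receptor, was lower, at 8.46 and 8.35 in Myc-depleted BASCs and 8.60 and 8.68 in controls (difference -0.23), whereas its partner Ifnar2 was higher, at 9.89 and 9.71 in Myc-depleted BASCs and 9.57 and 9.61 in controls.

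Among the adaptors and kinases of nucleic acid sensing, 16 were tested, with a median of 0.08. Without overlap, 3 were higher and 5 lower (18.8% and 31.2%, against 26.6% and 20.8% of all genes). Myd88, the adaptor of most Toll-like receptors, read 9.59 and 9.29 in Myc-depleted BASCs, against 8.88 and 9.09 in controls (difference 0.45, limma, adjusted p = 0.507). Ikbke, a kinase that activates Irf3, was higher by 0.45 without overlap. Irf5 and Rnaseh2b, a subunit of the nuclease that removes RNA from RNA-DNA hybrids, had differences of -0.44 and -0.22, lower without overlap. Cgas, the cytosolic DNA sensor, read 7.22 and 7.51 in Myc-depleted BASCs, against 7.85 and 7.56 in controls, and Sting1, its partner in signalling, read 6.66 and 6.42 in Myc-depleted BASCs, against 6.78 and 6.67 in controls. Both were lower without overlap. Of the feedback genes and repressors, 12 were tested, with a median of 0.10. Without overlap, 3 were higher and 2 lower (25% and 16.7%), close to the 26.6% and 20.8% of all genes. The smallest p-values were those of Irf2bp2 (difference -0.38), Pias3 (0.40), Otud5 (-0.23) and Ptpn11 (0.18). Each of these had a tested probe set of the other sign, at 0.06, -0.00235, 0.36 and -0.46. Usp18 and Socs1, which damp interferon signalling, were under the threshold.

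A wider list of other interferon-induced genes held 62 tested genes, with a median of 0.08. Of the 62, 40 had a positive difference (64.5%, against 54% of all genes). Without overlap, 19 of the 62 were higher and 10 lower (30.6% and 16.1%, against the shares of 26.6% and 20.8% over all genes given above). Of the 19, 3 had a control mean under the filter threshold (Nmi, Psmb9 and Cxcl11) and so passed the filter through the Myc-depleted arrays. So did Irgm2 and Trim34a, with overlapping groups and control means of 5.01. All of these count among the 40 and enter the median. At an unadjusted p under 0.05, 7 were higher and 2 lower, against 6.96% and 5.23% of all genes, with none past the adjusted threshold. Tap2, a subunit of the transporter that loads peptides onto MHC class I, read 8.48 and 7.96 in Myc-depleted BASCs, against 7.02 and 7.28 in controls. Its difference of 1.07, or 2.10-fold, passed both 2-fold and an unadjusted p of 0.05 (limma, adjusted p = 0.382). Its partner Tap1 read 6.48 and 6.41 in Myc-depleted BASCs, against 5.61 and 5.88 in controls (difference 0.70, limma, adjusted p = 0.374). Nampt, an enzyme of NAD synthesis, read 8.74 and 8.86 in Myc-depleted BASCs, against 9.46 and 9.40 in controls (difference -0.63). Slfn9, of the Schlafen family, had a difference of -0.60. The other genes at that unadjusted p were Tor3a, Ly6e, Ifitm2, Nmi and Casp4, all higher without overlap, of which Nmi had to differ to pass the filter.

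**Figure D5:**
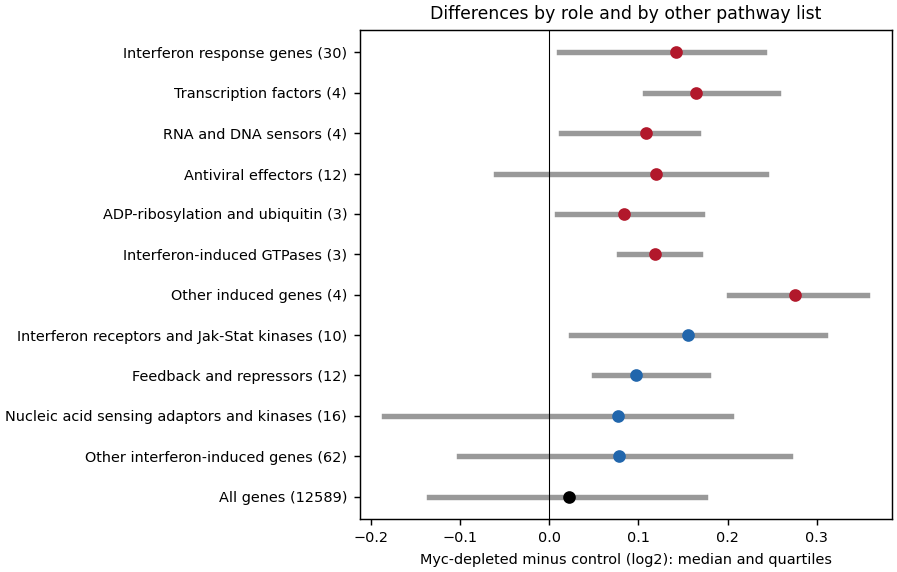
Median difference in log2 expression (Myc-depleted minus control, horizontal axis), as points, with bars between the quartiles. Red points are the interferon response genes and their role groups, blue points the other pathway lists, the black point all genes, and the numbers in brackets the genes tested. The interferon response genes sit at 0.14, the wider list of interferon-induced genes at 0.08 and all genes at 0.02.

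Markers of other cell types were read on the same arrays. Of 11 leukocyte markers, 6 were tested, 3 with a positive and 3 with a negative difference, and none separated the groups. The mean of those tested was 6.39 and 6.80 in Myc-depleted BASCs and 6.35 and 6.41 in controls, with Ptprc (CD45) under the threshold on every array. Lyz2, a macrophage lysozyme, was highest on Myc-depleted array 2, at 5.71 and 7.71 in Myc-depleted BASCs and 5.27 and 5.88 in controls. Of 6 endothelial markers 1 was tested, and Pecam1 (CD31) was under the threshold. The fibroblast markers, which feeder cells would also carry, gave 7 tested genes of 8, with 3 higher and 2 lower without overlap, against 26.6% and 20.8% of all genes. Pdgfra, a growth factor receptor, read 11.70 and 11.36 in Myc-depleted BASCs, against 10.31 and 10.29 in controls (difference 1.23), and Thy1 read 4.68 and 4.75 in Myc-depleted BASCs, against 6.02 and 5.92 in controls (difference -1.26). Both passed 2-fold and an unadjusted p of 0.05 and were larger in size than the difference of any interferon response gene, with the Myc-depleted level of Thy1 under the threshold. Dcn and Pdgfrb were higher by 0.67 and 0.44 without overlap. The mean of the tested markers, which moved in both directions, was 11.04 and 10.83 in Myc-depleted BASCs and 10.83 and 10.92 in controls. Their part in the values of the interferon response genes was not tested.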

How the data were processed

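RNA of 4 arrays was compared. The authors imported the scanner files into Partek Genomics Suite 6.4 and deposited normalised log2 values per probe set. Their methods name Robust Multichip Average normalisation and the submitters' processing notes name GCRMA. Which of these made the values was not settled. The procedures differ mainly in how background is taken off, which bears on dim probe sets. The deposited log2 values ran between 2.89 and 14.6, and their precision is limited by the 4 arrays.

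Of 45101 probe sets, 64 array controls were left out. Platform annotation gave 34945 probe sets 1 symbol, 932 several and 9160 none. The 27022 probe sets whose 4-array mean exceeded the 40th percentile entered lmFit and eBayes of limma 3.58.1 (R 4.3.3), with group as the only term and 2 residual degrees of freedom, with Benjamini-Hochberg adjustment over all of them. A gene was represented by its tested single-symbol probe set with the highest mean. The fit was tested on simulated data, in which the noise was independent between arrays and the changes were larger than any member's. That test does not cover deviations shared between arrays of different groups. Values on every array were to be given for Irf1, Irf7, Irf9, Stat2, the 12 members with the smallest p among those without overlap and any with a difference over 0.5, and differences for up to 4 genes of each pathway list with the smallest p. Other members are given to account for each role. Ifnb1, Ifng, Ifnar2, Cgas, Sting1, Usp18, Socs1, Tor3a, Ly6e, Ifitm2, Nmi, Casp4, Psmb9, Cxcl11, Irgm2, Trim34a and the cell type markers given were added after their values were seen. The interferon response genes and all lists were chosen with earlier results of these data known. Alternatives were the filter, scaling, a floor, an intensity trend, the methods' analysis of variance, the probe set rule, the replicate number as a block, the spike-in covariate, a fold of 1.5 and leaving out each array. Replicate numbers of the labels did not pair the arrays, since the deviations of same-numbered arrays from their group means correlated at -0.77.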

Additional observations from a re-analysis of the deposited data

How the results depend on the processing

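With 2 arrays a group, no setting that kept the model to the group alone called a member. The spike-in covariate called 3224 probe sets and 3 of the 30 members (Stat2, Xaf1 and Ifit3). That share was no higher than the 11.9% of all genes called with it. Averaging all tested probe sets of a gene called 22 genes and 0 members. Lowering the study's fold threshold from 2 to 1.5 passed 1 member, Ifit3, with an unadjusted limma p under 0.05. In the methods' analysis of variance the unadjusted p of Ifit3 was 0.111. No share of all genes was set beside this count. The difference of Ifit3 was 1.09 without control 1 and 1.11 without Myc-depleted 2. Leaving out each array in turn gave 13 to 22 of the 30 members higher without overlap, the 22 without control 1, against 36.9% to 42.9% of all genes. It gave 1 to 9 lower without overlap, the 9 without control 2, against 30.5% to 36.8% of all genes. The median difference ran between 0.066 without control 2 and 0.22 without control 1. The stricter filter left 5 of 18 members higher without overlap, against 26.5% of all genes. Irf7 ran between -0.049 without Myc-depleted 1 and 0.42 without Myc-depleted 2, and Irf9 between -0.039 without control 2 and 0.043 without control 1, with -0.034 without Myc-depleted 2. The causes were not tested. A fit with the replicate block called 0 probe sets and 0 members, as did the fit without it. Pairing Myc-depleted 2 with control 1, and Myc-depleted 1 with control 2, an alternative chosen after seeing the data, called 21 probe sets and 0 members. Without control 2, the difference was 0.07 for Lgals3bp, 0.06 for Ifi35, 0.25 for Xaf1, 0.27 for Ifit1 and 0.08 for Igtp, and without control 1 it was 0.57 for Lgals3bp, 0.40 for Ifi35 and 0.15 for Oasl1. Without Myc-depleted 2 it was 0.31 for Stat2 and 0.14 for Parp14. Without probe sets open to cross-hybridisation by their suffix, it was 0.04 for Tlr3 and 0.03 for Ifi35. In direction and call, though not in size, the differences of single genes were otherwise unchanged under 196 combinations of gene and alternative, with 3 stronger, all under the spike-in covariate, and 3 reversed, those of Irf7 and Irf9 above. That count does not measure robustness. The filters, the intensity trend, the analysis of variance and the replicate block leave a gene's difference as it was. No single gene was called in the main fit, so an unchanged call means only that the gene stayed uncalled. The threshold of 5.08 is the 40th percentile of probe set means, and no background level was measured. Levels near it could therefore not be told from background.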
